A study of Rattus norvegicus with 32 samples.

Results

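The genes described here encode the enzymes that write methyl groups onto histone lysines and the enzymes that erase them, measured as RNA in the adult rat hippocampus after early-life iron deficiency with or without prenatal choline. They were taken by symbol from the count tables: the Kdm, Jmjd, Kmt2, Kmt5, Setd, Suv39h, Nsd and Prdm families together with Ehmt1, Ehmt2, Ezh1, Ezh2, Dot1l and Ash1l. Of the 32883 rows in each table, 65 had such a symbol. They comprised 21 rows named for Jumonji C (JmjC) proteins (Kdm2 to Kdm8 and Jmjd), 2 for the flavin-dependent demethylases Kdm1a and Kdm1b, 28 for methyltransferases and 14 for PRDM proteins. Setdb2 had 2 rows, and the row for Suv39h1 carried the symbol Suv39h1l1. Enough reads for testing across the 16 libraries of a sex were found for 58 of the 65 in males and 59 in females, and the rest were Kdm4d and 4 or more of the Prdm genes in either sex, 1 Setdb2 row in males and Kdm5d in females.

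Sprague-Dawley rats of both sexes were studied at an age of 65 days (P65), with 4 rats in each of 4 groups per sex. IS rats were always iron-sufficient and served as controls, FID rats were formerly iron-deficient, and ISch and FIDch rats had the same iron histories plus choline given to the dam during pregnancy. Per the study's methods, written for males, maternal iron was restricted from early gestation through the first postnatal week, all rats were iron-replete afterwards, and a single male per litter was used. The labels give the female groups by the same diets. All male libraries belong to sequencing batch I and all female libraries to batch II, and a difference between the sexes cannot be told apart from one between the batches. RNA came from whole hippocampus, in which fewer cells of a type and less RNA per cell cannot be told apart.

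Histone lysine methylation is written by enzymes that take the methyl group from S-adenosylmethionine, a pool to which choline contributes through betaine. Most demethylases carry a JmjC domain and need ferrous iron, oxygen and 2-oxoglutarate, whereas Kdm1a and Kdm1b use flavin instead of iron. Methylated H3K9 and H3K27 mark repressed chromatin, H3K4 methylation marks promoters and enhancers, and H3K36 methylation marks transcribed gene bodies. In the hippocampus, several of these enzymes, among them Ehmt2, Setdb1, Kdm5c and Kmt2a, are known for roles in learning or in neurodevelopmental disorders. The comparison of the iron-dependent erasers with the writers across the diets is the question addressed here.

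Library totals ran from 3515806 to 9517503 counts in males and from 18439999 to 26616318 in females, so that a change of a given size was measured with less counting error in females. The lists of excitatory neuron markers summed to 3864 to 4929 CPM (counts scaled to library size) per library, those of the thalamus to 40.0 to 64.7 CPM and those of the striatum to 73.9 to 105 CPM. Choroid plexus markers summed to at most 6.76 CPM in male IS, ISch and FIDch and 18.3 CPM in females, but to 6.94 to 408 CPM in male FID, where Ttr reached 350.0 CPM in replicate 4. Names of a second form mark male ISch replicates 1 and 2 and FIDch replicate 2 (the smallest total). Dsp, a marker of dentate granule cells, stood at 1.57, 1.07 and 2.24 CPM in these 3 and at 3.05 to 11.5 CPM in the other 13 male libraries. Prox1 and C1ql2, also markers of granule cells, did not set them apart. Prox1 was 125, 128 and 119 CPM in these 3 and 89.4 to 145 CPM in the other 13. C1ql2 was 72.1, 67.8 and 71.6 CPM in these 3 and 67 to 102 CPM in the other 13.

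One library went against its label. Kdm5d, a Y-linked H3K4 demethylase among the genes described, was counted at 47.2 to 59.2 CPM in the 16 male libraries and at 0 in 15 of the 16 female libraries, but at 10.2 CPM (188 counts) in the library labelled female FID replicate 2. Eif2s3y, another Y-linked gene, was counted 297 times there and 0 times in the other female libraries. The rows of Ddx3y and Usp9y, also Y-linked, did not separate the sexes. Ddx3y had 0 to 3 counts in males, 0 to 11 in females and 6 in that library. Usp9y had 11 counts in male ISch replicate 2, 6 in male FIDch replicate 2 and 0 elsewhere. Kdm5d in that library was 19.5% of the male median of 52.1 CPM. A gene listed only by the identifier AABR07039356.2 showed the reverse, with 69.9 to 103 CPM in the other 15 female libraries, at most 0.244 CPM in males and 0 in this one. These checks were chosen after the Kdm5d values were seen, and the counts and the main values of female FID below are given with and without the library.

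**Figure D1:**
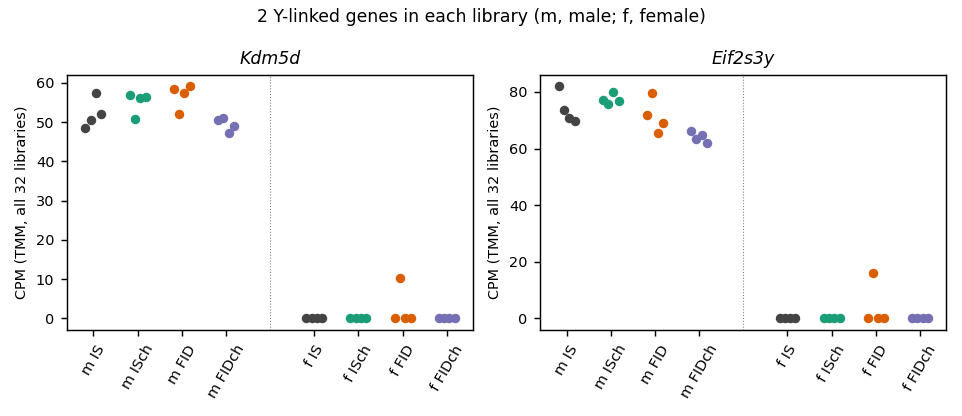
Normalized level (CPM, TMM over all 32 libraries) of Kdm5d and Eif2s3y in each library, by sex (m, f) and diet group, 4 points per group. The male libraries lie between 47.2 and 59.2 CPM for Kdm5d, and 1 female FID library lies at 10.2 CPM where the other 15 female libraries are at 0.

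Few of the enzymes were called in any diet comparison, and their differences were small. Members were counted as called by the criterion of the study's methods, an absolute log2 fold change over 0.2 with an unadjusted p under 0.05, in edgeR's quasi-likelihood test of each pair of groups. In males, 0 of 57 members were called for FID against IS, and 2.34% of the 13851 genes tested were called higher and 2.28% lower. For FIDch against IS, 2 of 57 were higher and 0 lower, beside 2.91% and 3.21% of all genes. For ISch against IS, 6 of 58 were higher and 2 lower, beside 4.52% and 3.54%. For FIDch against FID, 5 of 58 were higher and 0 lower, beside 5.74% and 7.24%. For FIDch against ISch, 1 of 58 was higher and 4 lower, beside 3.09% and 5.03%. With so few members, each of these counts differs from the share in all genes by at most a handful of genes.

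Most of the ISch calls were lost without the 2 libraries with the second form of name: 1 of the 8 calls was left, Setd1b, beside 2.02% of all genes higher and 2.78% lower. The median log2 fold change over the members was 0.06 with and without them. Since only 2 ISch rats remain and fewer of all genes were called too, the loss cannot show that the count rested on those libraries. Leaving out FIDch replicate 2 took the calls of FIDch against IS from 2 to 1, again Setd1b. Without male FID replicate 2, the library with the lowest Kmt2a, Setd1b, Kmt5c and Dot1l of its group, the count for FID against IS went from 0 to 5 higher (Ash1l, Jmjd4, Kdm5a, Kdm7a and Nsd3), beside 3.36% of all genes. The calls for FIDch against FID, 5 higher and 0 lower, became 3 and 4 without FIDch replicate 2, beside 6.04% and 7.94%, 2 and 4 without FID replicate 2, beside 5.78% and 6.58%, and 7 and 0 without FID replicate 4, beside 5.23% and 6.19%. Setd1b and Ehmt2 were called higher in all 3 of these. For FIDch against ISch, leaving out the second name form kept Kmt5c and Kdm7a and lost Prdm10, Kdm6a and Prdm11, with Kdm5a, Setd2 and Setd7 called in their place.

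In females, 0 of 59 members were higher and 4 lower in FID than in IS, beside 3.08% and 3.4% of all genes. For FIDch against IS, 0 of 58 were higher and 2 lower, beside 4.16% and 4.82%. For ISch against IS, 2 of 58 were higher and 2 lower, beside 5.14% and 5.15%. For FIDch against FID, 4 of 59 were higher and 2 lower, beside 5.59% and 7.07%. For FIDch against ISch, 1 of 59 was higher and 4 lower, beside 1.82% and 2.75%. Without the library labelled female FID replicate 2, the calls for FID against IS fell to 2 lower (Prdm8 and Setd4), beside 3.26% of all genes, and those for FIDch against FID to 3 higher (Setd4, Prdm8 and Kdm4c) and 1 lower (Suv39h1l1), beside 5.04% and 5.93%.

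After Benjamini-Hochberg adjustment over all genes tested in a comparison, 1 result remained, Kdm6b in female ISch against IS. In the male comparisons FID, FIDch and ISch against IS, FIDch against FID and FIDch against ISch, edgeR gave 0 members with an adjusted p under 0.05 and 1, 2, 11, 9 and 8 with an unadjusted p under 0.05, beside 5.68%, 7.89%, 10.5%, 17.8% and 13.6% of all genes. The shares of all genes with an adjusted p under 0.05 were 0%, 0.131%, 0.208%, 1.28% and 0.043%. In females the numbers with an unadjusted p under 0.05 were 13, 5, 10, 11 and 10, beside 11.2%, 12.9%, 16.3%, 18% and 7.93% of all genes. There were 0 adjusted calls outside ISch against IS, and the adjusted shares of all genes were 0.191%, 0.907%, 2.54%, 2.28% and 0.00689%. DESeq2 gave adjusted calls for Ehmt2 in male FIDch against FID, Kdm6b and Jmjd1c in female ISch against IS, and Prdm8 and Setdb1 in female FIDch against FID, and 0 in the other 7 comparisons. The shares given are those of edgeR. The share of all genes called by DESeq2 is not given here, so its calls, here and below, have no background beside them.

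**Figure D2:**
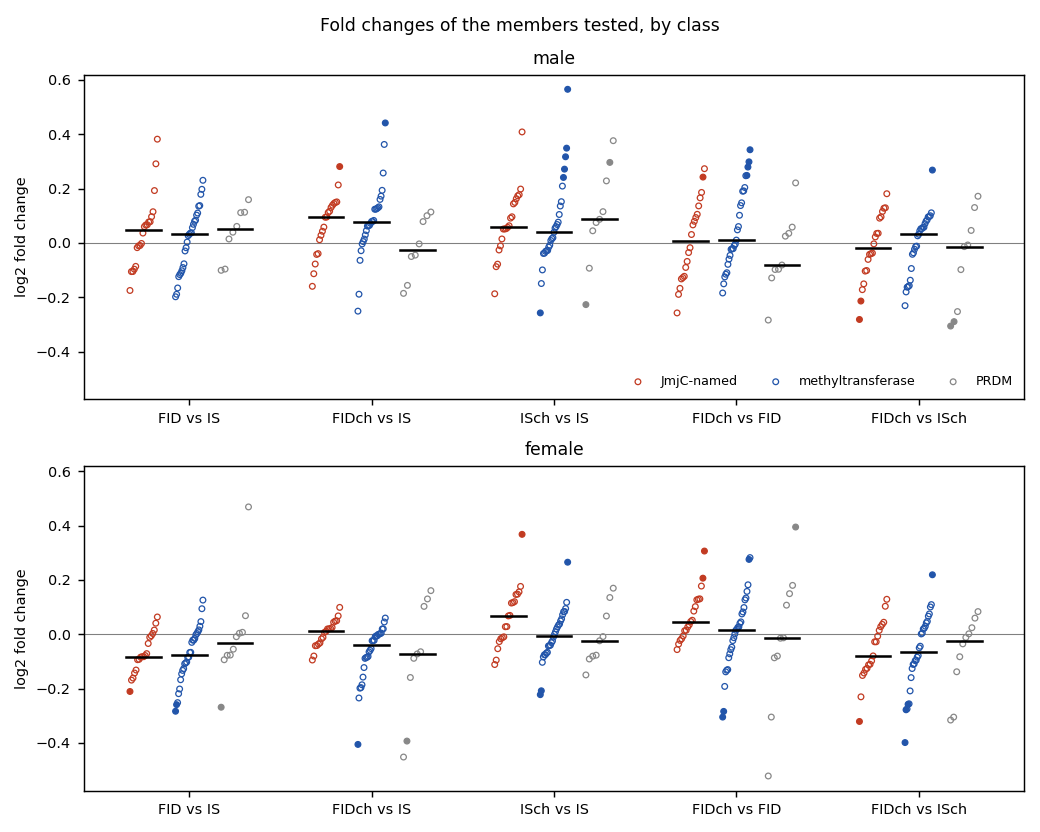
Log2 fold change (y axis) of each tested member in 5 comparisons per sex (x axis), by class; filled points met the criterion and the black bar is the class median. In female FID against IS the JmjC and methyltransferase medians are both below 0, at -0.08, and in male FID against IS no point is filled.

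The enzymes of H3K27 gave the clearest single difference. Kdm6b erases H3K27 methylation and is an inducible gene in neurons and immune cells. In female rats it stood at 28.7, 30, 29.3 and 32.2 CPM in IS and at 39.5, 35.7, 40.6 and 39.6 CPM in ISch. All 4 ISch rats were above all 4 IS rats. The share of all genes without overlap in a diet comparison was not counted. Such statements, here and below, therefore only describe the values. The log2 fold change was 0.37 (SE 0.06, adjusted p = 0.0124), and the exact 2-sided permutation p of 0.0286 is the smallest that 4 rats against 4 allow. When any 1 library was left out, the adjusted p lay between 0.00949 and 0.045. With the replicate number as a block, it was 0.0646.

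Choline-treated female rats with a history of iron deficiency had Kdm6b levels within reach of the controls. Female FID rats had 30, 25.3, 30.7 and 27.6 CPM of Kdm6b, and FIDch rats 30.3, 27.4, 33.9 and 32.8 CPM. These ranges overlapped with each other and with IS. FIDch lay below ISch in every rat, at -0.32 (SE 0.08, adjusted p = 0.495) on the log2 scale. The difference between the 2 choline effects, tested as an interaction of iron and choline, was -0.24 (SE 0.10, adjusted p = 0.515), and -0.28 (SE 0.10, adjusted p = 0.5) without the library labelled female FID replicate 2.

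Some markers of dentate granule cells also differed between the female choline groups and the others. Dsp stood at 2.22, 2.01, 1.67 and 1.6 CPM in IS and 12.7, 11.9, 12 and 18.2 CPM in ISch, and it was 1.71, 1.83, 1.37 and 1.86 CPM in FID and 10.1, 10.9, 16.1 and 15.5 CPM in FIDch. Prox1, the transcription factor of granule cells, and C1ql2 rose in ISch by 0.39 (SE 0.07, adjusted p = 0.0227) and 0.51 (SE 0.08, adjusted p = 0.0103) on the log2 scale, and 3 of the 8 hippocampal field markers tested were called higher there. Prox1 was 115 to 120.5 CPM in FID and 140.5 to 161 CPM in FIDch, a smaller difference than that of Dsp. C1ql2 overlapped, at 77.3 to 101 CPM in FID and 83.25 to 114 CPM in FIDch. Cpne4, another field marker, was 320, 293, 262 and 293 CPM in IS and 218, 277, 291 and 233 CPM in ISch. The summed level of the whole list was 948 to 1285 CPM in IS and 1011 to 1334 CPM in ISch, with Spink8 and Lct at most 0.351 CPM. Their part in the Kdm6b result was not tested.

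Male Kdm6b levels overlapped between ISch and IS. Kdm6b was 33.1, 33.2, 43.1 and 38.7 CPM in male IS and 35.3, 36.4, 37.8 and 40.4 CPM in ISch, with a log2 fold change of 0.01 (SE 0.10, adjusted p = 0.969). It was 41, 32.1, 35.1 and 30 CPM in FID and 44, 40.9, 38.4 and 40.6 CPM in FIDch, a difference of 0.24 (SE 0.10, adjusted p = 0.219) that met the criterion, and 1 FID rat lay within the FIDch range. Without FID replicate 4, the library with choroid plexus RNA, that difference was 0.18 and no longer met the criterion, as was also the case without FID replicate 2 or FIDch replicate 1. The female effect of ISch against IS exceeded the male effect by 0.35 (SE 0.12, adjusted p = 0.157), which did not pass the adjusted threshold.

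The promoter of Kdm6b is shown because it is the member with the only adjusted call, and that of Ehmt2 because it has the smallest p for an interaction of iron and choline in males. Both are RefSeq sequences of build GRCr8, 250 bases before to 50 after the gene start, each on the minus strand of its chromosome and written 5′ to 3′ along the gene. The counts were made on Rnor_6.0, so these positions are not those of the counts. Capitals mark the GC box letters GGGCGG or their reverse complement, which may overlap.
Kdm6b (GRCr8 chr10:54640965-54641264): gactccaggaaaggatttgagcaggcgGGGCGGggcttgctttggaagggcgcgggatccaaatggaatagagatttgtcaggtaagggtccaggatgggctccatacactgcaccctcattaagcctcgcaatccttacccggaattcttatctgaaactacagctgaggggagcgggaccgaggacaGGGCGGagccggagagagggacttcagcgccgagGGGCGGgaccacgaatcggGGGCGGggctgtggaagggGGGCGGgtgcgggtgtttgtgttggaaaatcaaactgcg
Ehmt2 (GRCr8 chr20:3940661-3940960): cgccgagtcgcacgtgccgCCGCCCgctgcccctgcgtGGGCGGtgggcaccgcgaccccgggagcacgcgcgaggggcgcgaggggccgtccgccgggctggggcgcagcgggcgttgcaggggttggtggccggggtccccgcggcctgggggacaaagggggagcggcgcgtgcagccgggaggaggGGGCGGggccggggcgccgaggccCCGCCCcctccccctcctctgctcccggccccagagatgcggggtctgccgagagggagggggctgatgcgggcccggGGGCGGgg
Both windows hold 5 GC boxes, with 19 CpG dinucleotides in Kdm6b and 41 in Ehmt2. A RefSeq gene was matched for 64 of the 65 rows, and 51 distinct promoters were found for them, of which 35 (68.6%) held the letters GGGCGG on either strand, beside 33.1% of all 33469 promoters and 41.8% of the 21851 of protein-coding genes. The median number of CpG was 27 over the 51, 7 over all promoters and 11 over those of protein-coding genes. The letters CACGTG, an E-box, were in 4 of the 51, Ehmt2 among them, beside 6.42% of all promoters, and the cyclic AMP response element TGACGTCA was in 1, Suv39h2, beside 1.83%. These letters describe the windows only.

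The partners and opponents of Kdm6b in H3K27 methylation gave smaller differences. Kdm6a, its X-linked relative, was 34.6, 33.6, 32 and 31 CPM in male ISch and 26.6, 29.9, 29.2 and 27.7 CPM in male FIDch, every FIDch rat below every ISch rat, with a log2 fold change of -0.21 (SE 0.07, adjusted p = 0.245). That call was lost when ISch replicate 1, FIDch replicate 1 or FIDch replicate 4 was left out. In females Kdm6a met the criterion in none of the 5 comparisons, with log2 fold changes between -0.09 and 0.10. Ezh1, the H3K27 methyltransferase of non-dividing cells, was 111 to 136 CPM over the female libraries and 122.5 to 145 CPM over the male ones, and its log2 fold changes lay between -0.02 and 0.08. Ezh2, its counterpart in dividing cells, was low, at 2.6 to 4.42 CPM in females and 6.48 to 12.3 CPM in males, and met the criterion in no comparison.

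**Figure D3:**
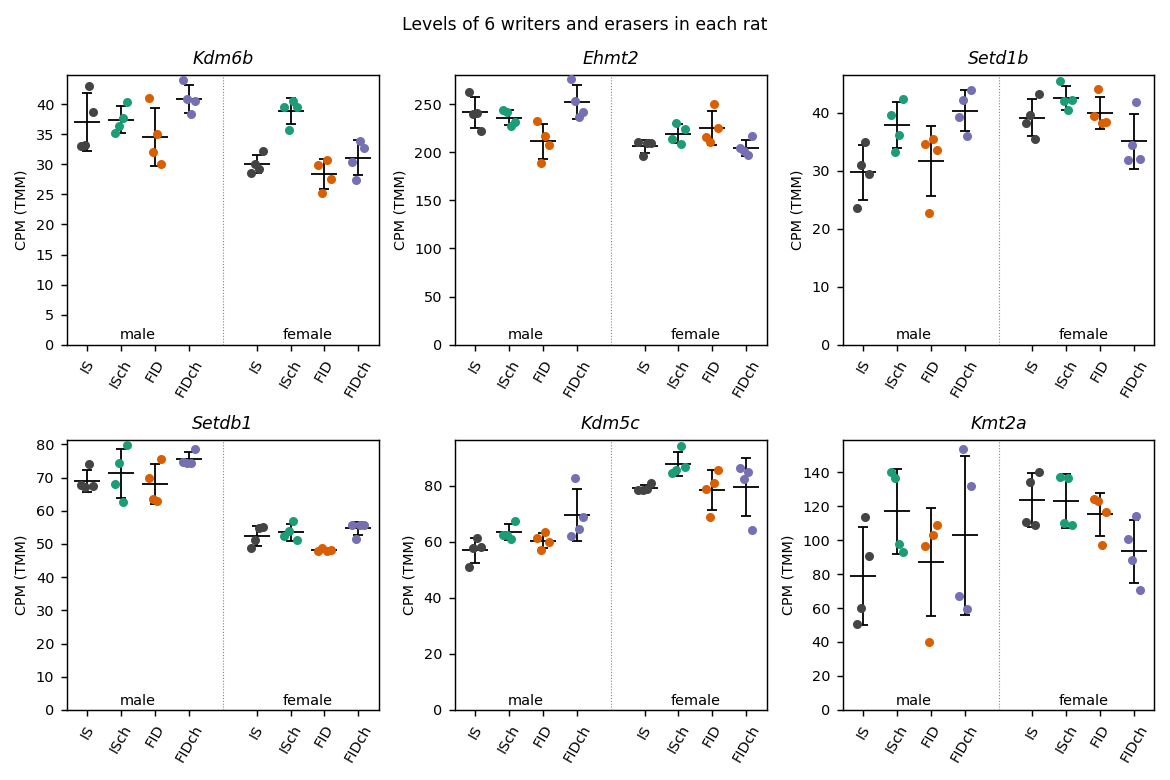
Level (y axis, CPM after TMM normalization within a sex) of 6 enzymes in each rat, by diet group and sex; bars show the mean and SD of 4 rats. In females all 4 ISch rats have more Kdm6b (35.7 to 40.6 CPM) than the 4 IS rats (28.7 to 32.2 CPM), and in males Kmt2a spreads from 40.1 to 153 CPM.

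H3K9 methylation, the mark the study also profiled by chromatin immunoprecipitation, is written by Ehmt1 and Ehmt2 (mono- and dimethylation) and by Setdb1, Setdb2 and the Suv39h enzymes (trimethylation). The Ehmt2 differences had opposite signs in the sexes, and with edgeR none passed after adjustment. Male FID rats had 232, 188, 217 and 208 CPM, against 262, 239.7, 241 and 222 CPM in IS and 276, 253, 236 and 242 CPM in FIDch. All FIDch rats were above all FID rats, with a log2 fold change of 0.25 (SE 0.07, adjusted p = 0.107) and an exact permutation p of 0.0286. Against IS the FID value was -0.20 (SE 0.08, adjusted p = 0.786), with 1 FID rat within the IS range. DESeq2 gave an adjusted p of 0.0401 for FIDch against FID.

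Female rats had 216, 211, 250.4 and 225 CPM of Ehmt2 in FID, 210.5, 196, 209 and 209 CPM in IS and 204, 201, 197 and 216 CPM in FIDch. Here every FID rat was above every IS rat, the closest pair being 210.7 and 210.5 CPM, by 0.13 (SE 0.05, adjusted p = 0.394), and FIDch against FID was at -0.14 (SE 0.06, adjusted p = 0.243) with overlapping ranges. Neither reached the fold limit of 0.2. Without the library labelled female FID replicate 2, these log2 fold changes were 0.16 and -0.17.

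The interaction of iron and choline for Ehmt2 was 0.30 (SE 0.09, adjusted p = 0.195) in males and -0.22 (SE 0.08, adjusted p = 0.395) in females, or -0.25 without the library labelled female FID replicate 2. The effect of FID against IS differed between the sexes by 0.31 (SE 0.08, adjusted p = 0.303), the smallest p among the 59 members in that test, and did not pass after adjustment. Its partner Ehmt1 was 28.7 to 33.8 CPM in females and 30.5 to 39.8 CPM in males, and its log2 fold changes lay between -0.05 and 0.03.

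Setdb1, which trimethylates H3K9 at silenced genes and retroelements, was 47.7, 48.8, 48 and 48.1 CPM in female FID rats, 48.7, 51.3, 54.8 and 55.1 CPM in IS and 55.6, 51.6, 55.7 and 55.7 CPM in FIDch. All 4 FID rats lay below all FIDch rats, and 3 of them below all IS rats. FIDch exceeded FID by 0.18 (SE 0.05, adjusted p = 0.0783), short of the fold limit, and by 0.19 (SE 0.06, adjusted p = 0.176) without the library in doubt. In males the same comparison gave 0.15 (SE 0.07, adjusted p = 0.303), with 70, 63.5, 62.9 and 75.6 CPM in FID and 74.8, 74.4, 74.2 and 78.6 CPM in FIDch.

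The row Suv39h1l1 was called lower in choline-treated females at the unadjusted criterion. It was 14, 14.5, 14.4 and 13.6 CPM in IS, 13.2, 12.8, 12.9 and 10.2 CPM in ISch, 15.6, 15.1, 16.3 and 13.5 CPM in FID and 11.3, 12, 13.8 and 12.6 CPM in FIDch. Every ISch rat was below every IS rat. The log2 fold changes were -0.21 (SE 0.09, adjusted p = 0.3) for ISch against IS and -0.28 (SE 0.09, adjusted p = 0.133) for FIDch against FID, and the second was -0.28 without the library labelled female FID replicate 2. In males its 5 values lay between 0.10 and 0.26, none at the criterion. Suv39h2 (7.15 to 10.4 CPM in females) and both rows of Setdb2 met the criterion in no comparison, and the lower Setdb2 row was at most 1.48 CPM.

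Among the erasers of H3K9 methylation, Kdm3a, Kdm3b and Jmjd1c act on the mono- and dimethyl mark, Kdm7a on the dimethyl mark and the Kdm4 enzymes on the trimethyl mark, all through iron. In females, Kdm3a was 56.1, 49.9, 52.4 and 52.1 CPM in IS and 44.6, 49.4, 43.6 and 49.7 CPM in FID, and Kdm4c was 19.2, 19.4, 20.2 and 19.8 CPM and 17.6, 18.4, 17.6 and 17.8 CPM. For both genes every FID rat was below every IS rat. The log2 fold changes were -0.17 (SE 0.06, adjusted p = 0.286) and -0.14 (SE 0.06, adjusted p = 0.401), short of the fold limit, and -0.19 and -0.15 without the library in doubt. Kdm4c was called higher in FIDch than in FID, at 0.21 (SE 0.08, adjusted p = 0.198) and 0.22 without that library, with 22.5, 18.8, 19.1 and 22.1 CPM in FIDch.

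Jmjd1c, the relative of Kdm3a and Kdm3b, was 109.8, 124, 112 and 119 CPM in female IS and 129, 128, 133 and 129 CPM in ISch. All ISch rats were above the IS rats, by 0.16 (SE 0.05, adjusted p = 0.121) with edgeR, and DESeq2 gave an adjusted p of 0.0438. Kdm3b had a log2 fold change of 0.11 (SE 0.05, adjusted p = 0.286) in that comparison and 0.16 (SE 0.06, adjusted p = 0.424) in males, both under the fold limit. Among the pairwise comparisons, Kdm7a was called in male FIDch against ISch alone, at -0.28 (SE 0.13, adjusted p = 0.344), where the ranges overlapped. In male IS replicate 1 it stood at 10.3 CPM, and the other male libraries had 17.8 to 27.7 CPM.

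Kdm4a, at 66.3 to 74.7 CPM in females and 72.6 to 86.8 CPM in males, had log2 fold changes between -0.04 and 0.06. Kdm4b met an unadjusted p under 0.05 in male FIDch against FID, at 0.17 (SE 0.07, adjusted p = 0.24). Kdm4d was at most 0.689 CPM in any library and was not tested. The flavin-dependent Kdm1a, which erases H3K4 and, with some partners, H3K9 methylation, was lower in every female FID rat (70.1, 68.3, 68 and 64.7 CPM) than in every IS rat (71.7, 72.8, 76 and 72.7 CPM), at -0.11 (SE 0.04, adjusted p = 0.334) and -0.12 without the library in doubt. Kdm1b met the criterion in no comparison, and its largest difference was 0.26 (SE 0.12, adjusted p = 0.306).

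**Figure D4:**
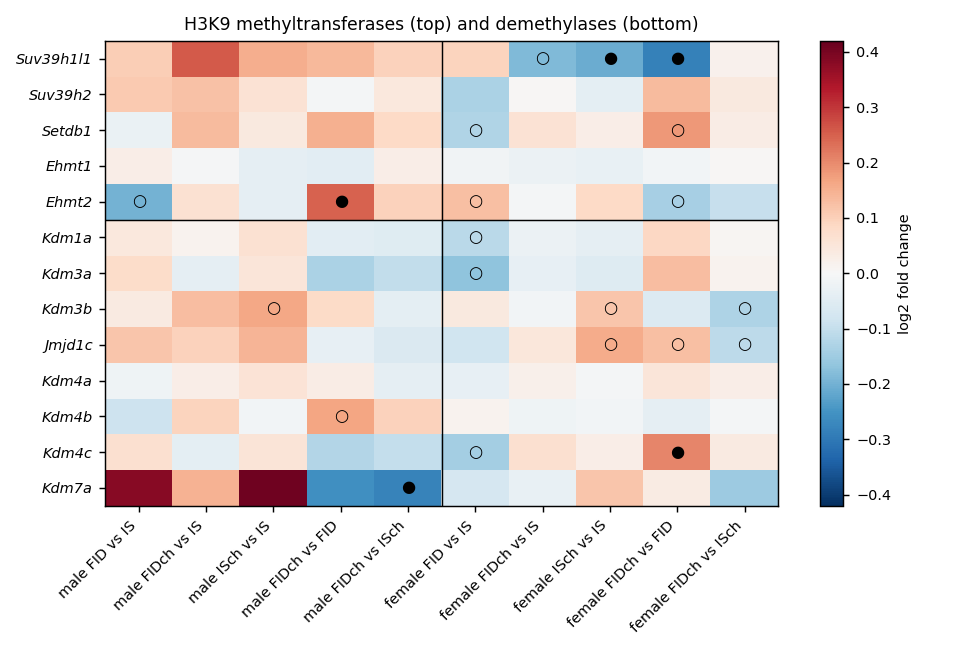
Log2 fold change (colour) of 13 H3K9 enzymes (rows, methyltransferases above the line) in 5 comparisons per sex (columns); open circles mark an unadjusted p under 0.05 and filled circles the criterion. Ehmt2 is at -0.20 in male FID against IS and at 0.13 in female FID against IS.

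Among the H3K4 methyltransferases, Setd1b, the catalytic subunit of a promoter-bound COMPASS complex, was higher in choline-treated males. It was 23.5, 31, 34.9 and 29.4 CPM in IS, 39.7, 33.2, 36.2 and 42.4 CPM in ISch, 34.7, 22.7, 35.5 and 33.6 CPM in FID and 39.2, 42.3, 36 and 44 CPM in FIDch. All FIDch rats were above all IS and all FID rats, and the ISch and IS ranges overlapped. The log2 fold changes were 0.44 (SE 0.12, adjusted p = 0.3), 0.34 (SE 0.13, adjusted p = 0.196) and, for ISch against IS, 0.35 (SE 0.12, adjusted p = 0.385). Without the libraries of the second name form they were 0.42, 0.32 and 0.39, and each still met the criterion. The call against FID was lost without FIDch replicate 4.

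In females the Setd1b differences were 0.12 (SE 0.07, adjusted p = 0.408) for ISch against IS, -0.16 (SE 0.09, adjusted p = 0.51) for FIDch against IS and -0.19 (SE 0.09, adjusted p = 0.294) for FIDch against FID, the last -0.14 without the library in doubt, and none met the criterion. Setd1b was 45.5, 42, 40.5 and 42.1 CPM in female ISch and 31.9, 34.5, 41.9 and 32 CPM in FIDch, a log2 fold change of -0.28 (SE 0.09, adjusted p = 0.556) with 1 FIDch rat inside the ISch range. The effect of FIDch against IS was lower in females than in males, at -0.59 (SE 0.16, adjusted p = 0.0572) on the log2 scale, the smallest p among the 59 members in that test.

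Kmt2a, the H3K4 methyltransferase of the MLL1 complex, varied widely between rats of 1 group. Male rats had 50.6, 60.1, 114 and 90.8 CPM in IS, 139.8, 137, 97.6 and 93.2 CPM in ISch, 96.3, 40.1, 103 and 109 CPM in FID and 67.2, 153, 59.2 and 132 CPM in FIDch. Its pooled within-group SD in males was 0.57 on the log2 scale, above that of 99.95% of genes within 0.5 log2 CPM of its level. The log2 fold change of ISch over IS was 0.57 (SE 0.22, adjusted p = 0.441), the ranges overlapped, and the call was lost when IS replicate 1 or 2 or ISch replicate 1 or 2 was left out. In females it was lower in FIDch, with 100.4, 88.2, 114 and 70.4 CPM, than in IS, with 111, 134, 109 and 140.3 CPM. The female differences were -0.41 (SE 0.13, adjusted p = 0.234) against IS, -0.40 (SE 0.14, adjusted p = 0.563) against ISch and -0.30 (SE 0.13, adjusted p = 0.242) against FID. Without the library labelled female FID replicate 2 the last was -0.27, of similar size but no longer at the criterion. FIDch replicate 4 had the lowest value, and without it the difference from IS was -0.30. The same library had the lowest Prdm11, Setd7, Nsd1 and Nsd3 of its group.

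Kmt2b, the paralogue of Kmt2a, was 71, 69.4, 78.3 and 74.3 CPM in female ISch and 59.9, 55.9, 70 and 59.2 CPM in FIDch, with a log2 fold change of -0.26 (SE 0.07, adjusted p = 0.556). Every female FID rat (65.9, 64.3, 61.5 and 62.9 CPM) was below every IS rat (68.5, 72, 68.4 and 72.4 CPM), at -0.15 (SE 0.04, adjusted p = 0.217) and -0.15 without the library in doubt. Setd7, a methyltransferase of H3K4 and of non-histone proteins, was 67, 71.1, 52 and 68.3 CPM in female IS and 73.7, 71.4, 87.5 and 78.5 CPM in ISch, with no overlap and a log2 fold change of 0.27 (SE 0.10, adjusted p = 0.196), a call lost without IS replicate 3 or ISch replicate 3.

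The erasers of H3K4 methylation gave 1 call in a pairwise comparison. Kdm5c, an X-linked H3K4 demethylase, was 50.8, 57.7, 61.3 and 58 CPM in male IS and 62.1, 82.8, 64.6 and 68.7 CPM in FIDch, with no overlap, by 0.28 (SE 0.10, adjusted p = 0.472). Without FIDch replicate 2, the library at 82.8 CPM, the difference was 0.20 and no longer met the criterion. In females Kdm5c was 78.4, 78.3, 78.8 and 81 CPM in IS and 84.5, 85.6, 94.2 and 86.6 CPM in ISch, again without overlap but under the fold limit, at 0.15 (SE 0.04, adjusted p = 0.132). Kdm5d, present in males, was lower in FIDch than in FID, at -0.19 (SE 0.07, adjusted p = 0.196), under the fold limit.

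Among the H3K36 methyltransferases, Nsd1, Nsd3 and Ash1l were called higher in male ISch than in IS at the unadjusted criterion, at 0.32 (SE 0.13, adjusted p = 0.463), 0.27 (SE 0.10, adjusted p = 0.403) and 0.24 (SE 0.11, adjusted p = 0.472). Nsd3 was 53.4, 66.5, 76.2 and 64.2 CPM in IS and 80.5, 85, 75.5 and 74.1 CPM in ISch. The ranges of all 3 genes overlapped, IS replicate 1 held the lowest Nsd3, the Nsd3 call was lost without it or ISch replicate 2, and none was called without the libraries of the second name form. Across the 16 male libraries, after removal of the group means, Ash1l, Nsd1 and Nsd3 followed Kmt2a with Pearson correlations of 0.968, 0.951 and 0.927. In the 16 female libraries, Nsd1, Prdm11, Nsd3 and Ash1l followed it at 0.939, 0.918, 0.84 and 0.801. These values describe libraries that differ in depth. Zbtb20, one of the hippocampal field markers, was at 4.86, 7.32, 33.3 and 23 CPM in male IS and 48.6, 35.6, 18.6 and 8.52 CPM in ISch, with the 2 lowest IS values in the libraries with the lowest Kmt2a and the 2 highest ISch values in those with the highest. The field marker Prox1 was also lowest in those 2 IS libraries, at 89.4, 90.6, 142 and 118 CPM over IS. Wfs1, another field marker, was not, at 342, 418, 363.5 and 388 CPM. Slc1a2, an astrocyte marker, was at 179, 367, 488.5 and 436 CPM in IS and 511, 377, 415 and 389 CPM in ISch, so the IS pattern was not limited to field markers. Female FIDch replicate 4, with the lowest Kmt2a of its group, also had the lowest Zbtb20 and Slc1a2 there, at 9.65 and 162 CPM. Its Wfs1 was the highest of that group, at 651 CPM. The part of these genes in the differences was not tested. Setd2, which trimethylates H3K36 behind the polymerase, met the criterion in no comparison, and its log2 fold changes lay between -0.14 and 0.14. The H3K36 demethylases Kdm2a and Kdm2b had no call either, although Kdm2a was higher in every male ISch rat than in every IS rat, by 0.18 (SE 0.05, adjusted p = 0.351).

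Kmt5a, Kmt5b and Kmt5c methylate H4K20, a mark of compacted chromatin. Kmt5c was 34.9, 39.9, 34 and 34.8 CPM in male ISch and 43.8, 42, 40.4 and 46.7 CPM in FIDch, with no overlap, and the log2 fold change was 0.27 (SE 0.07, adjusted p = 0.172). Against FID, with 40.9, 25.1, 37.9 and 38.6 CPM, it was 0.28 (SE 0.13, adjusted p = 0.277), a call lost without FID replicate 2 or FIDch replicate 2. In female FID rats Kmt5c stood at 17, 12.4, 16.4 and 14.8 CPM and in IS at 16.9, 18.3, 19.2 and 19.4 CPM, a difference of -0.28 (SE 0.10, adjusted p = 0.289). The lowest of these is the library labelled female FID replicate 2, without which the difference was -0.20 and below the fold limit. Kmt5a had the smallest p of the interaction of iron and choline in females, 0.23 (SE 0.08, adjusted p = 0.395) or 0.24 without that library, with 24.6, 23.3, 23.1 and 22.4 CPM in FID and 25.8, 26.8, 24.8 and 26.9 CPM in FIDch. In female FID against IS, all 3 genes were lower with an unadjusted p under 0.05 in edgeR's test, at -0.28 to -0.11. At that p, 5.69% of all genes were lower. Kmt5b was 59.8, 62.7, 58.7 and 60.5 CPM in FID and 62.4, 66.4, 63.4 and 68 CPM in IS, with overlapping ranges.

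Dot1l, the H3K79 methyltransferase, was 57.6, 37.4, 55.6 and 54.5 CPM in male FID and 67.1, 67.2, 54.1 and 65.3 CPM in FIDch, a difference of 0.30 (SE 0.12, adjusted p = 0.235) with overlapping ranges. FID replicate 2 was the lowest, and the call was lost without it or without FIDch replicate 2. In females its log2 fold changes lay between -0.08 and 0.09, none at the criterion. Setd3, whose known substrate is a histidine of actin, was lower in female ISch (74.2, 66.1, 68.5 and 70.8 CPM) than in IS (81.8, 72.1, 77.3 and 94.6 CPM), at -0.22 (SE 0.08, adjusted p = 0.185), and higher in FIDch than in ISch by 0.22 (SE 0.08, adjusted p = 0.567). Setd4 was called lower in female FID against IS, at -0.26 (SE 0.11, adjusted p = 0.417), and higher in FIDch against FID, at 0.28 (SE 0.10, adjusted p = 0.192), from levels of 6.54 to 9.02 CPM, and without the library in doubt these were -0.28 and 0.30. The first of these Setd4 calls was lost when any of 6 single libraries was left out and the second with any of 3, and that of Setd3 in ISch was lost without IS replicate 4 or ISch replicate 2.

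PRDM proteins carry a domain related to the SET domain of the methyltransferases, and only some of them are known to be enzymes. Prdm8, a neuronal repressor, was 40.8, 36.6, 35.9 and 41.2 CPM in female IS, 33.4, 31.7, 35.9 and 27.6 CPM in FID and 49.9, 43.6, 40.6 and 34.5 CPM in FIDch. The log2 fold changes were -0.27 (SE 0.08, adjusted p = 0.219) for FID against IS and 0.39 (SE 0.11, adjusted p = 0.0896) for FIDch against FID, and the ranges overlapped by 1 rat in each. The first was lost without FID replicate 4. Without the library labelled female FID replicate 2 they were -0.26 and 0.39. Prdm10 was 24.7, 24.9, 21.9 and 23.7 CPM in male ISch and 17.8, 17.1, 19.5 and 21.9 CPM in FIDch, with no overlap, at -0.31 (SE 0.09, adjusted p = 0.204), and its interaction of iron and choline was -0.42 (SE 0.15, adjusted p = 0.232). Prdm11 was called lower in female FIDch against IS, at -0.39 (SE 0.18, adjusted p = 0.379), a call lost when any of 5 single libraries was left out. Among them was FIDch replicate 4, the library with the lowest Kmt2a of its group. Prdm13 and Prdm14 had no counts in any library. The calls not yet given were Prdm8 and Setd6 in male ISch against IS, at -0.23 (SE 0.09, adjusted p = 0.455) and -0.26 (SE 0.11, adjusted p = 0.463), Prdm10 there at 0.30 (SE 0.12, adjusted p = 0.453), and Prdm11 in male FIDch against ISch at -0.29 (SE 0.11, adjusted p = 0.285). Jmjd6, named for histone arginine demethylation and known for lysine hydroxylation, was at -0.21 (SE 0.09, adjusted p = 0.439) in female FID against IS and at 0.31 (SE 0.12, adjusted p = 0.213) in FIDch against FID, and at -0.17 and 0.27 without the library labelled female FID replicate 2, where neither met the criterion.

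The iron-dependent erasers, taken as the members named for JmjC proteins, and the writers, taken as the methyltransferases, were then set side by side. These classes go by name, and they hold Jmjd6 and Setd3, which are known for other activities. Without Jmjd4, Jmjd6, Jmjd7 and Jmjd8, the contrast per rat given below was classed as the same in all 10 comparisons. In male FID against IS the median log2 fold change was 0.05 over the 20 JmjC members and 0.03 over the 27 methyltransferases, beside -0.01 over all genes. In male FIDch against IS these medians were 0.10 and 0.08, beside 0.01, and in ISch against IS 0.06 and 0.04, beside 0.00. In female FID against IS both classes had medians below 0, -0.08 over 19 JmjC members and -0.08 over 28 methyltransferases, beside 0.00 over all genes. In that comparison 12 of the 13 members with an unadjusted p under 0.05 were lower, beside 5.52% of all genes higher and 5.69% lower at that p, and 15 of the 59 tested had a positive log2 fold change, beside 50.1% of all genes. Without the library labelled female FID replicate 2 the medians were -0.09 and -0.08, with 13 lower and 1 higher at that p. Thalamic markers summed to 56.3 to 64.7 CPM in female FID and 45.5 to 58.4 CPM in IS. Of these, Slc17a6 was 24.8, 24.1, 20.8 and 27.7 CPM in FID and 12.4, 13, 21.8 and 12.9 CPM in IS. The ranges of Tcf7l2, Calb2, Rora, Prkcd and Lef1 overlapped more widely, so that the sum mostly followed Slc17a6. The part of these markers in the difference was not tested. In female FIDch against IS the medians were 0.01 and -0.04. The female ISch against IS medians stood further apart, at 0.07 over the JmjC members and -0.01 over the methyltransferases, and 5 JmjC members had an unadjusted p under 0.05, all higher, beside 8.27% of all genes higher at that p, Kdm6b, Jmjd1c, Kdm5c, Kdm5b and Kdm3b.

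The same contrast was taken per rat as the mean log2 CPM of the JmjC members minus that of the methyltransferases. This within-rat value is read by its differences between groups, since its level depends on the genes' lengths. Male IS rats had -0.31 ± 0.07 (SD, n = 4) and ISch rats -0.31 ± 0.06, FID rats -0.28 ± 0.05 and FIDch rats -0.33 ± 0.07, with overlapping ranges throughout. In females it was -0.12 ± 0.03 in IS and -0.12 ± 0.02 in FID, and -0.05 ± 0.02 in ISch and -0.05 ± 0.06 in FIDch. The ISch values (-0.08 to -0.03) lay above all IS values (-0.14 to -0.09), and the FIDch values, from -0.11 to 0.02, spanned both. Without the library labelled female FID replicate 2 the FID mean was -0.11 ± 0.01 (n = 3). No test was made of this contrast, since the genes were chosen with results known. With the median log2 CPM of each class per rat in place of the mean, the female ISch difference turned from 0.08 to -0.07. This is not the median fold change given before. The sign also turned in female FID against IS and FIDch against ISch, so the direction of the contrast depends on the summary used.

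**Figure D5:**
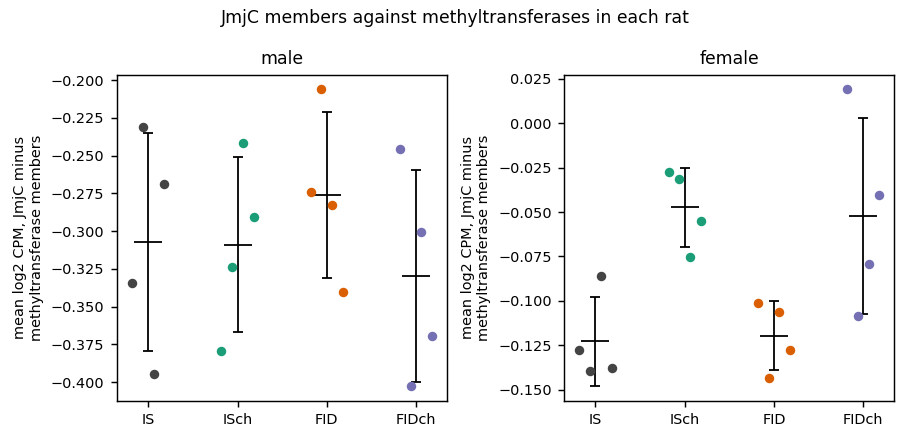
Mean log2 CPM of the JmjC members minus that of the methyltransferases (y axis) in each rat by diet group (x axis), males on the left (20 and 27 genes) and females on the right (19 and 28 genes) with their own y scales, and the mean and SD of 4 rats. The female ISch rats, at -0.08 to -0.03, lie above the female IS rats, at -0.14 to -0.09, and the male groups overlap.

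A test of the interaction of iron and choline, the difference between the choline effect in formerly iron-deficient and in iron-sufficient rats, gave 10 of 58 members with an unadjusted p under 0.05 in males, beside 15.4% of all genes, and 11 of 59 in females, beside 9.18%. With edgeR 0 members had an adjusted p under 0.05 in either sex, beside 0.00699% and 0.00668% of all genes, and DESeq2 gave 0 with 9 and 11 at an unadjusted p under 0.05. The 10 in males were 4 JmjC genes (Kdm5a, Kdm7a and Kdm5d negative, Jmjd8 positive), 4 methyltransferases (Ehmt2, Kmt5c and Setd1a positive, Setd7 negative) and Prdm8, positive, and Prdm10, negative. The 11 in females were 4 JmjC genes (Kdm3a and Kdm8 positive, Kdm3b and Kdm6b negative), 6 methyltransferases (Kmt5a, Setd3, Setd4 and Setdb1 positive, Ehmt2 and Setd1b negative) and Kdm1a, positive. There were 6 positive and 4 negative in females without the library labelled female FID replicate 2.

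Whether a diet effect differed between the sexes was tested in 1 fit of all 32 libraries. For FID against IS, 9 of 59 members had an unadjusted p under 0.05, beside 8.61% of all genes, and 0 an adjusted p under 0.05, beside 0.0258%. One of the 9 was Kdm5d, whose value rests on the library labelled female FID replicate 2. Without that library, an alternative chosen after seeing the data, the adjusted count was also 0. For FIDch against IS there were 7, beside 15.8%, and for ISch against IS 5, beside 15.6%, with 0 adjusted calls in each, beside 1.31% of all genes. DESeq2 gave 2 adjusted calls for FIDch against IS.

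The other genes of the pathway, from lists of partners and relatives, also gave few calls. Of 9 subunits of PRC2, the complex of Ezh1 and Ezh2, 1 was called higher and 3 lower in male FIDch against FID, where 5.74% of all genes were called higher and 7.24% lower, among them Suz12 at -0.24 (SE 0.10, adjusted p = 0.244), and in female ISch against IS, with 5.14% of all genes called higher, Suz12 was the 1 of the 9 called, at 0.20 (SE 0.07, adjusted p = 0.181). Of 12 subunits that work with Kmt2 and Setd1 enzymes in COMPASS complexes, 2 were higher and 1 lower in that male comparison, with Psip1 at -0.21 (SE 0.05, adjusted p = 0.0783), and 0 in the other 9 comparisons. Of 12 tested partners and readers of H3K9 methylation, Cbx5 and Cbx1, 2 heterochromatin proteins, were at 0.31 (SE 0.12, adjusted p = 0.786) and -0.30 (SE 0.11, adjusted p = 0.786) in male FID against IS, where 2.34% of all genes were called higher and 2.28% lower. In females 1 of the list was called, Atf7ip in FIDch against IS, beside 4.16% of all genes called higher and 4.82% lower. Of the partners of Kdm1a, Hdac1 and Rest were at 0.24 (SE 0.07, adjusted p = 0.199) and -0.36 (SE 0.16, adjusted p = 0.353) in male FIDch against ISch, where 3.09% of all genes were called higher and 5.03% lower. Of 6 tested methyltransferases under other names, 1 was called higher and 1 lower in male FIDch against ISch, beside 3.09% and 5.03% of all genes, and 1 lower, Setmar, in female ISch against IS, beside 5.15%. Of 9 other JmjC-domain genes in the tables, 1 was called in each of 4 comparisons, either Riox2 or Hr, where the share of all genes called in that direction was 2.75% to 5.59%, and Phf8 was lower in female FID than IS, at -0.19 (SE 0.05, adjusted p = 0.156), under the fold limit. No gene of these lists had an adjusted p under 0.05 in edgeR's test.

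Levels in control rats differed between the sexes, which is also the difference between the sequencing batches. On a common scale, 9 of 59 members were higher in all 4 female IS rats than in all 4 male IS rats and 13 were lower, beside 16.4% and 17.3% of all 15520 genes. The X-linked Kdm5c was 1.49 times as high in females as in males, Kdm6a 1.27 times and Kmt2a 1.69 times, and the ranges of Kdm6a overlapped. Ezh2, Jmjd8 and Kmt5c were at 0.45, 0.477 and 0.5 of the male level.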

How the data were processed

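RNA from whole hippocampus of 32 rats was sequenced. The deposited values are raw counts per gene, made by the authors with FastQC, Trimmomatic, HISAT2 and featureCounts of Subread on Rnor_6.0. The library kit does not mark strand, and the strand setting and the treatment of reads with several positions are not given in the sources used here. Of the 64 rows matched to RefSeq, 31 overlapped another gene, Setdb1 and Cers2 or Ezh2 and Cul1 for example, so that reads of such pairs may not be separable, whereas Kdm6b and Ehmt2 overlapped none.

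Males and females were analysed apart with edgeR 4.0.16 in R 4.3.3 (TMM, filterByExpr, quasi-likelihood test), each pair of groups in its own fit, and p-values were adjusted by Benjamini-Hochberg over all genes tested. CPM are TMM-normalized within a sex unless a common scale is named. The script was tested on simulated data. Alternatives were DESeq2 1.42.0, RLE scaling, no filter, all 4 groups in one fit, a replicate block and leaving out libraries. Named were the H3K9 enzymes, members with an adjusted p under 0.05, in each comparison the 3 members at the criterion with the smallest p, the 2 per sex with the smallest interaction p, and examples of each role, and the other members named were chosen after their values were seen. Members, lists, roles, motifs and the values without libraries in doubt were chosen with earlier results of these data known. Nothing in the labels says that rats of a group came from separate litters in females, so p-values measure the spread between these samples. Counts of replicates differed by more than sampling noise in all 48 pairs (chi-square per gene 2.02 to 25.24).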

Additional observations from a re-analysis of the deposited data

Results flagged for a closer look

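In 4 of 66 groups of 4 rats checked, 1 rat stood apart from the other 3, with a gap to its nearest neighbour divided by the group's range above Dixon's 95% critical value, and chance gives about 1 in 20 such groups. The ratio was 0.851 for Setd1b in male FID (replicate 2 low), 0.838 for Kmt5c in male ISch (replicate 2 high), 0.922 for Ehmt2 in female IS (replicate 2 low) and 1 for Kdm5d in female FID (replicate 2, the other 3 at 0).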

How the results depend on the processing

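No direction turned over among the results with a test. Without a low-count filter, the calls in male FID against IS went from 0 to 1 and in FIDch against IS from 2 to 4. With all 4 groups in one fit, male FID against IS gave 1, male FIDch against ISch 3 in place of 5, and female FIDch against FID 1 adjusted call in place of 0. DESeq2 gave 1 adjusted call in male FIDch against FID, 2 in female FIDch against FID, 2 in female ISch against IS, 2 for the sex difference of FIDch against IS, and 3 calls at the criterion in male FIDch against ISch and 2 in female FID against IS. Without the libraries of the second name form, male FIDch against IS and ISch against IS each gave 1. The replicate numbers do not pair the rats (correlations of same-numbered deviations from -0.151 to 0.215), and with the replicate block female FID against IS gave 2 in place of 4 and ISch against IS 0 adjusted calls in place of 1. The cause was not tested. The shares of all genes called without a filter, in the single fit and with the block are not given here.

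Leaving out each library in turn gave 0 to 5, 1 to 6, 2 to 10, 2 to 10 and 2 to 9 calls in male FID, FIDch and ISch against IS, FIDch against FID and FIDch against ISch, and 2 to 4, 1 to 5, 2 to 5, 4 to 7 and 4 to 6 in females. The share of all genes called moved too. In male FID against IS it was 1.65% higher and 1.53% lower without FID replicate 4, and 3.36% and 2.62% without FID replicate 2. Most of these shares are not given here, so the ranges cannot be read as a trait of the members. The extremes came without IS replicate 1 or 3, FID replicate 2, or FIDch replicate 1, 2, 3 or 4 in males, and without FIDch replicate 2 or 3, IS replicate 4 or ISch replicate 1, among others, in females. Adjusted calls stayed at 0, apart from 1 in female ISch against IS throughout and 0 to 1 in FIDch against FID (1 without FIDch replicate 4). Interaction counts at an unadjusted p under 0.05 were 6 to 11 in males and 6 to 13 in females.

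The JmjC minus methyltransferase difference with the median log2 CPM of each class per rat was 0.104 (means 0.0313) for male FID against IS, -0.121 (-0.0224) for FIDch against IS, -0.225 (-0.0537) for FIDch against FID and -0.156 (-0.0207) for FIDch against ISch. In females it was -0.118 (0.00317), -0.0651 (0.0756) for ISch against IS, 0.148 (0.0674) for FIDch against FID and 0.0959 (-0.00503) for FIDch against ISch. Without a filter, where Kdm5d enters, it was 0.107 for female FID against IS and -0.0365 for FIDch against FID. Leaving out libraries gave the means' ranges 0.0021 to 0.0567, -0.0516 to 0.00298, -0.0309 to 0.0236, -0.0816 to -0.0294 and -0.0486 to 0.00365 in males, and -0.00293 to 0.0155, 0.0467 to 0.0893, 0.0689 to 0.0879, 0.0436 to 0.0861 and -0.0288 to 0.0137 in females, in the order used above. Male depth, at most 9517503 counts, limits the low genes such as Prdm1 and Ezh2 most.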
